A study of Homo sapiens with 10 samples.

Results

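Stable and transient expression of the Polycomb-based transcription factor PcTF were compared in U-2 OS, a human osteosarcoma cell line. The comparison used 3 of the 10 RNA-seq libraries of the series. Of these, 2 came from the stable line U2OS-PcTF, which carries an integrated, TetR-repressed PcTF gene in a Flp-In T-REx U-2 OS background and was induced with 1 µg/mL doxycycline for 96 h. The remaining library came from U-2 OS cells (ATCC HTB-96) collected 96 h after lipofection with the PcTF plasmid, which is always on in cells without TetR and was taken up by only a part of the cells. Each side has a control library that holds no PcTF. The stable control was the line U2OS-ΔTF, which has the activator without the Polycomb chromodomain and received the same doxycycline, and the transient control was mock-transfected U-2 OS cells given the transfection reagents alone. No unmodified Flp-In T-REx cells were analysed here, so the way PcTF was delivered, the parental stock, doxycycline and lipofection cannot be told apart.

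The deposited value for U2OS-PcTF is a mean of 3 libraries that includes the transfected one, and the mean of the 2 stable libraries was derived from it by subtraction. Each gene therefore had 1 stable mean, in FPKM (fragments scaled to transcript length and library depth), set against 1 transfected library. No test was possible, and the spread between the 2 stable libraries is unknown for most genes. Of 83 low single-exon genes, 78 could be split into whole reads of each library. There 50.7% of the reads fell in the deeper library, against 51.4% of the depth, and 23 of 30 genes with 3 or more reads were seen in both. Because the depths of the 2 libraries are close, the possible splits of several reads differ little in FPKM. These figures therefore say little about how well the 2 libraries matched. The labels give 2 stable PcTF libraries and 1 ΔTF library, whereas the methods of the study speak of triplicates. Of 23243 genes shared by both U-2 OS tables, 13115 reached 1 FPKM on either side and were kept. Among the genes nearest to that limit, SF3A2 was just inside at 1.00 FPKM on its higher side and CCDC87 was just outside at 0.9999 FPKM.

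PcTF joins the chromodomain of CBX8, which binds trimethylated lysine 27 of histone H3, to the transcriptional activator VP64 and the red fluorescent protein mCherry. Polycomb group proteins write and read this mark and keep developmental regulators such as HOX genes silent. PcTF was built to switch such genes on. Interferon signaling runs from sensors of foreign DNA and RNA in the cytoplasm through interferon regulatory factors to secreted interferons. Their receptors activate transcription factors that bind the interferon-stimulated response element (ISRE) in the promoters of antiviral genes. NF-κB is activated in the same cells by many of these stimuli and drives chemokine and cytokine genes.

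Both PcTF sides held the PcTF message. CBX8 reads count the native gene and the transgene together. CBX8 stood at 4.92 FPKM in stable U2OS-PcTF cells, against 6.43 FPKM in PcTF-transfected cells. It stood at 1.28 FPKM in U2OS-ΔTF cells, against 0.610 FPKM in mock-transfected cells. The log2 ratio of stable over transfected cells, with 0.1 FPKM added to both values, was −0.38 for CBX8. Its 95% counting interval, taken from estimated reads without the added 0.1 FPKM, was −0.70 to −0.06. The average CBX8 level in the 2 PcTF groups thus differed by less than 2-fold, and both exceeded either control.

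By reads recovered from the steps between low FPKM values, the stable libraries held 1.45e+07 and 1.37e+07 reads and the transfected library 4.28e+06, so the stable side was 6.60 times deeper. The ΔTF and mock libraries held 5.79e+06 and 4.87e+06 reads. Of 9 genes that mark U-2 OS cells, 7 reached 1 FPKM on both sides, and COL1A2 and TWIST1 were listed at 0 in both. Epithelial markers summed to 107 FPKM in stable and 65.4 FPKM in transfected cells, neural markers to 37.8 and 40.6 FPKM, and hematopoietic markers to 8.39 and 223 FPKM, of which CD74 made up 0.435 and 215 FPKM. The other hematopoietic markers kept were CD34 at 1.42 FPKM in stable and 0.870 FPKM in transfected cells, LAPTM5 at 3.30 and 6.65 FPKM, and VAV1 at 1.62 and 0.695 FPKM. PTPRC, which defines white blood cells, was below the limit at 0.869 FPKM in stable and 0.0502 FPKM in transfected cells, and the T cell gene CD3E was listed at 0 in both. The ΔTF library stood apart from the other 3. Its log2 ratio over mock had a median of 0.77 in the sixth of genes with the shortest transcripts and −0.91 in the sixth with the longest. The ratio of transfected over mock cells fell in the same direction over a smaller range, from 0.52 to −0.15. The ratio of stable over transfected cells stayed between 0.16 and 0.38 across these bins. The ΔTF values are given throughout with the length trend of their library as a limit.

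Interferon-stimulated genes were among the lists furthest from an equal level, and their promoters are shown because the letters of the ISRE can be read in them. Of 45 such genes kept, 37 had a promoter of 300 bases in the RefSeq table (GRCh38.p14), and 25 of these 37 (67.6%) held ISRE-like letters, that is GAAA, any 2 bases and GAAA, or on the other strand TTTC, any 2 bases and TTTC. Of all 27305 promoters in the table, 3.65% held them. NF-κB-like letters, that is GGGA, any 2 bases and TTCC, or on the other strand GGAA, any 2 bases and TCCC, were found in 5 of 18 promoters of NF-κB pathway genes (27.8%) and in 1.63% of all promoters. Overlapping matches were each counted. The sequences run from 250 bases before to 50 bases after the start of the gene and are written along the gene's strand. Capitals mark ISRE-like and NF-κB-like matches. CXCL10 (chr4:76023448-76023747, reverse strand) is a chemokine with 1 match of each kind. IFIT1 (chr10:89392373-89392672, forward strand), an RNA-binding antiviral protein, and IFI27 (chr14:94110486-94110785, forward strand), a mitochondrial interferon-induced protein, hold 2 ISRE-like matches each. XAF1 (chr17:6755796-6756095, forward strand), a pro-apoptotic factor, holds neither set of letters in this window.
CXCL10: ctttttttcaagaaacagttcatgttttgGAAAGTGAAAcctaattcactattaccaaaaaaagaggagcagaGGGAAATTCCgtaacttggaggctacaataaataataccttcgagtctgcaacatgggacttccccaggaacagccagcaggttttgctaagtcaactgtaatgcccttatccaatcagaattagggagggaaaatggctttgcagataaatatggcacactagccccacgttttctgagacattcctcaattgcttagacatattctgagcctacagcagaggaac
IFIT1: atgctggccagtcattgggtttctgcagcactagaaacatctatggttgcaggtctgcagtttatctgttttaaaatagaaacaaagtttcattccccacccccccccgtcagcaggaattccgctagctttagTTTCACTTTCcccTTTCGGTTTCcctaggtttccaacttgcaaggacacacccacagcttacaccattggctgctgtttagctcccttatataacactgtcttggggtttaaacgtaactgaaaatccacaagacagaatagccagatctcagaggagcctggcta
IFI27: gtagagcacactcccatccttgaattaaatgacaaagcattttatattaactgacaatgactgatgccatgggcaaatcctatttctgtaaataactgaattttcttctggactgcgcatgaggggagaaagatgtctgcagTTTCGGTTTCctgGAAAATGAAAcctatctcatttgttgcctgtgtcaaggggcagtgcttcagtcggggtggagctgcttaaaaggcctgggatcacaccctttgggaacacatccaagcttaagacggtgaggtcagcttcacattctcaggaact
XAF1: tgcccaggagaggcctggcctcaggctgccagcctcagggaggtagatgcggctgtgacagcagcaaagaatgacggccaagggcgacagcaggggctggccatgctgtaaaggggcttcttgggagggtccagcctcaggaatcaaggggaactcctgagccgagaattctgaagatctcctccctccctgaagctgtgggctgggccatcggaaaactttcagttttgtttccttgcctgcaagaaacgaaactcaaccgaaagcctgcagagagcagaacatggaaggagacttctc

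Across all genes kept, 2626 were at least 2-fold higher in stable than in transfected PcTF cells (20.0%) and 1106 were at least 2-fold lower (8.43%). The median log2 ratio was 0.30. With ratios centered on the median of genes at 1 FPKM or more on both sides, 1762 genes were higher and 1510 lower, so the excess of higher genes depends on the scaling. A stable mean below 1/2 of the transfected value means that both stable libraries lay below the transfected one, because neither can exceed 2 times their mean. This holds for all 1106 lower genes except MTRNR2L1, a nuclear copy of mitochondrial rRNA, where the derivation failed. The deposited mean of MTRNR2L1 was 0 although the transfected library alone had 24837 FPKM. For a higher gene the same arithmetic says only that at least 1 stable library was higher. Of the higher genes 319 were listed at 0 in transfected cells and of the lower genes 43 were at 0 in stable cells. Without small RNA genes and loci under 300 bp, 2395 of 12772 genes (18.8%) were higher and 1047 (8.20%) lower.

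**Figure D1:**
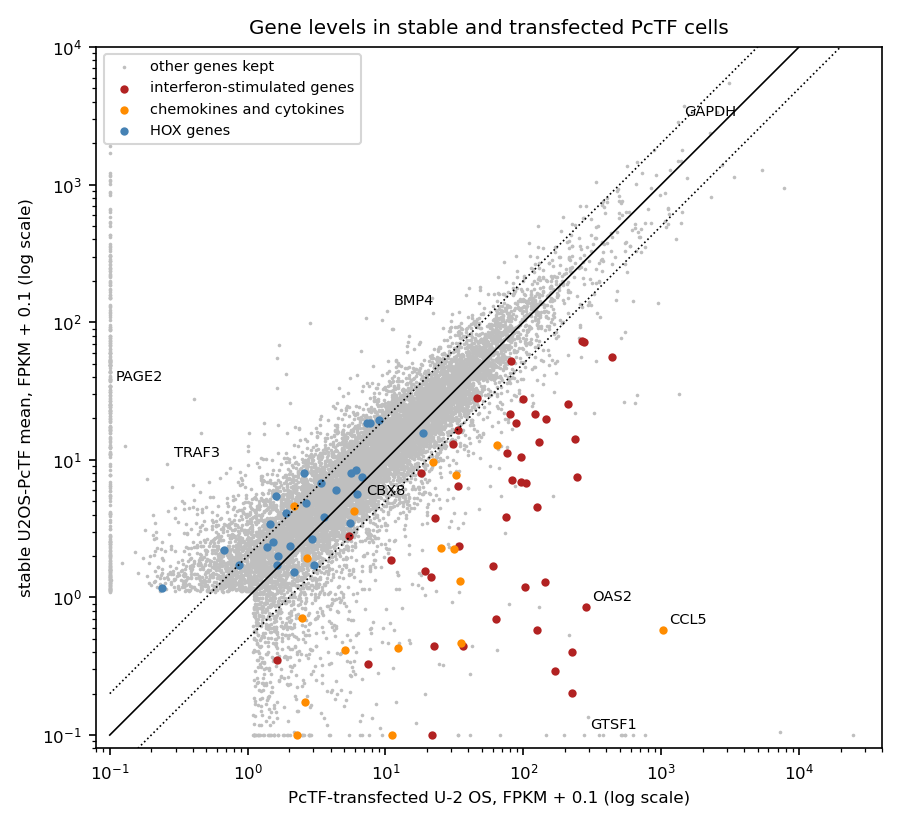
Level of each of the 13115 genes kept in stable U2OS-PcTF cells (y axis, derived mean of 2 libraries) against PcTF-transfected U-2 OS cells (x axis, 1 library), both as FPKM + 0.1 on log scales. The solid line marks equal levels and the dotted lines a 2-fold difference. All 45 interferon-stimulated genes (red) lie below the solid line, and genes listed at 0 on one side line up along an axis.

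All 45 interferon-stimulated genes kept were lower in stable than in transfected PcTF cells, 42 of them by at least 2-fold and none higher by that margin, against the 8.43% lower among all genes. Their median log2 ratio was −3.55 and their FPKM summed to 564 in stable and 4840 in transfected cells. OAS2, which makes the second messenger that activates RNase L, stood at 0.755 FPKM in stable cells, against 286 FPKM in transfected cells (log2 −8.39, counting interval −8.88 to −8.28). XAF1 stood at 0.190 FPKM in stable cells, against 169 FPKM in transfected cells (log2 −9.18). IFI27 stood at 1.20 FPKM in stable cells, against 143 FPKM in transfected cells (log2 −6.78). All 3 stood at 143 FPKM or more in the transfected library and at 1.20 FPKM or less in the stable mean. OAS2 and XAF1 were thus kept only through their transfected value. For members at 1 FPKM or more on both sides, the list median was −2.93.

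Of the other antiviral effectors, IFIT1, ISG15 and IFIT3 kept a measurable level in stable cells and HERC5 did not. IFIT1 stood at 25.4 FPKM in stable cells, against 212 FPKM in transfected cells. ISG15, a ubiquitin-like modifier, stood at 6.75 FPKM in stable cells, against 95.4 FPKM in transfected cells. IFIT3, a partner of IFIT1, stood at 7.36 FPKM in stable cells, against 245 FPKM in transfected cells. HERC5, the ligase that attaches ISG15, was at 0 in the stable mean, against 21.7 FPKM in transfected cells. The members that missed the 2-fold mark were PARP12 (2.71 FPKM in stable and 5.33 FPKM in transfected cells), IFITM2 (28.0 and 45.7 FPKM) and LGALS3BP (52.2 and 81.3 FPKM).

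The controls of these genes were ordered in the same way. In U2OS-ΔTF cells 34 of the 45 were at least 2-fold below mock-transfected cells, against 31.9% of all genes kept. Another 4 were higher, against 25.1% of all genes kept, and the median log2 ratio was −2.45. All 34 were also among the 42 that were lower in stable than in transfected PcTF cells. OAS2, XAF1 and IFI27 were each listed at 0 in ΔTF cells, against 12.8, 37.5 and 12 FPKM in mock cells. Stable PcTF cells lay at least 2-fold below mock cells at 19 of the 45 genes (6.60% of all genes) and above at 2 (27.6% of all genes). Transfected PcTF cells lay at least 2-fold above mock cells at all 45 (12.4% of all genes) and below at none (4.51% of all genes), with a median log2 ratio of 2.46. By median, mock cells therefore lay between stable and transfected PcTF cells, with −0.71 for stable over mock cells. Stable cells exceeded ΔTF cells at least 2-fold for 28 of the 45 genes (39.0% of all genes) and fell at least 2-fold short of them for 3 (11.1% of all genes), with a median log2 ratio of 1.63.

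**Figure D2:**
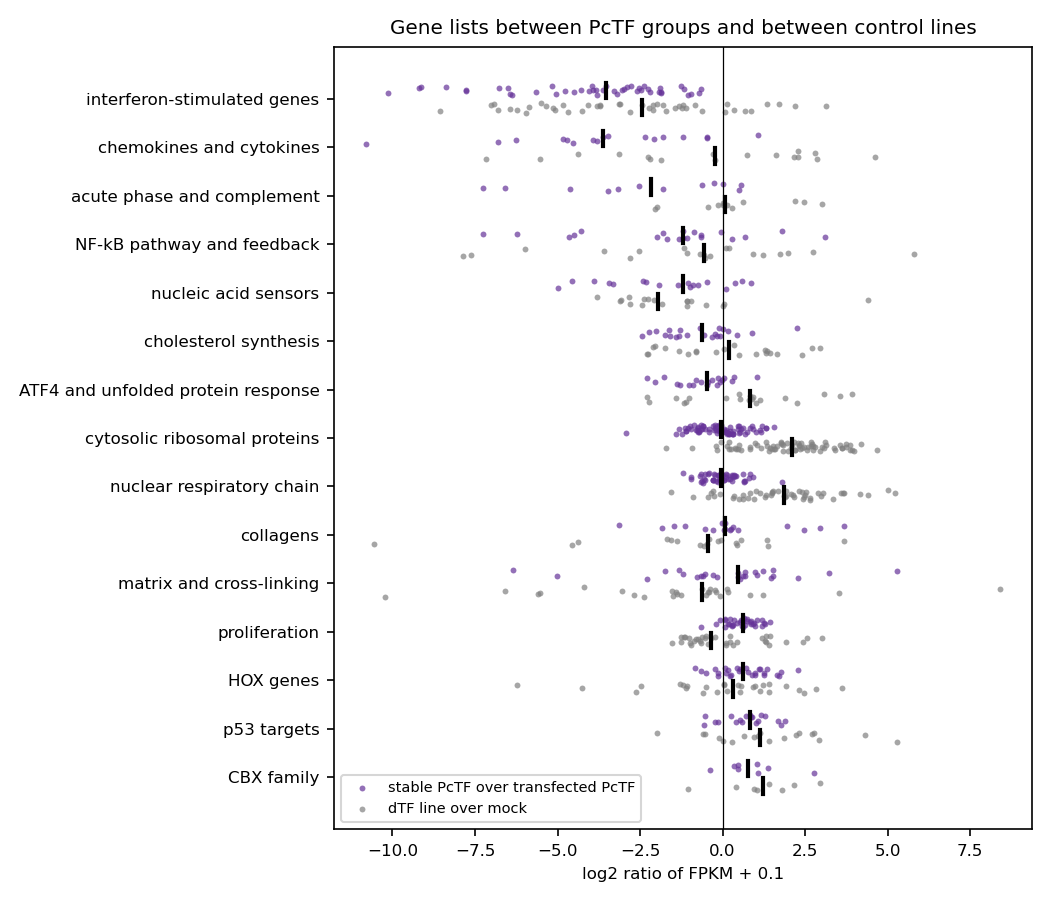
Log2 ratio of FPKM + 0.1 (x axis) for the members of 15 gene lists (rows), between stable and transfected PcTF cells (purple, upper points of a row) and between the ΔTF line and mock cells (gray, lower points). Each point is a gene and black bars are list medians. Interferon-stimulated genes have medians of −3.55 and −2.45, whereas cytosolic ribosomal proteins have medians of −0.06 and 2.09.

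Upstream of these effectors, the nucleic acid sensors were mostly lower in stable cells. At least 2-fold lower were 10 of 18 (8.43% of all genes) and none was higher (20.0% of all genes). The median was −1.20, or −1.94 for transcripts of 2 to 4 kb. It was −0.98, under 2-fold, both at 5 FPKM or more on either side and at 1 FPKM or more on both sides. DDX58, which encodes the RNA sensor RIG-I, stood at 21.6 FPKM in stable cells, against 324 FPKM in transfected cells (log2 −3.90). IFIH1, which encodes the long double-stranded RNA sensor MDA5, stood at 21.9 FPKM in stable cells, against 239 FPKM in transfected cells (log2 −3.44). ZBP1, a sensor of left-handed nucleic acids, stood at 0.0184 FPKM in stable cells, against 3.67 FPKM in transfected cells. Those 3 sensors are themselves interferon-inducible in many cell types. TMEM173, which encodes the adaptor STING, stood at 2.70 FPKM in stable cells, against 13.7 FPKM in transfected cells (log2 −2.31). MB21D1, the DNA sensor cGAS upstream of STING, stood at 5.71 FPKM in stable cells, against 9.63 FPKM in transfected cells (log2 −0.74). AIM2, DHX58, SAMHD1, IFI16, EIF2AK2 and TREX1 made up the rest of the 10 lower sensors. The other 8 sensor genes stayed within 2-fold. Among them, the adaptor MAVS stood at 7.56 FPKM in stable cells, against 5.75 FPKM in transfected cells, and the kinase TBK1 at 25.3 FPKM, against 23.6 FPKM.

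Interferon receptors did not follow the effectors between the PcTF groups. None of the 7 interferon ligand and receptor genes kept differed 2-fold, and their median log2 ratio was 0.36. Among all genes 20.0% were higher and 8.43% lower. In ΔTF cells, however, 6 of the 7 were at least 2-fold below mock cells (31.9% of all genes), with a median of −2.30. IFNAR1 and IFNAR2, the chains of the type I receptor, stood at 19.9 and 19.7 FPKM in stable cells, against 18.3 and 12.4 FPKM in transfected cells. IFNGR1 and IFNGR2, the chains of the type II receptor, stood at 23.2 and 18.1 FPKM in stable cells, against 18.0 and 24.0 FPKM in transfected cells. Of the ligands, only IFNK reached the limit, at 0.679 FPKM in stable cells, against 1.25 FPKM in transfected cells. IFNB1, IFNA1, IFNA2 and IFNG did not reach 1 FPKM on either side.

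Between receptor and effector, 3 of 16 JAK-STAT and IRF genes were lower (8.43% of all genes) and 1 was higher (20.0% of all genes), with a median of −0.16. IRF1 stood at 1.47 FPKM in stable cells, against 6.68 FPKM in transfected cells, and IRF8 at 1.91 FPKM, against 4.18 FPKM. STAT5B was the higher member, at 4.98 FPKM in stable cells, against 2.1 FPKM in transfected cells. JAK1, the kinase shared by both receptors, stood at 52.3 FPKM in stable cells, against 48.4 FPKM in transfected cells. STAT2 (10.0 FPKM in stable and 16.1 FPKM in transfected cells), IRF9 (6.38 and 8.07 FPKM) and IRF3 (6.65 and 6.56 FPKM) stayed within 2-fold.

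Chemokines and cytokines were lower in stable cells at 14 of 17 genes (8.43% of all genes), higher at 1 (20.0% of all genes), and had a median log2 ratio of −3.62. Members such as CCL5 and CXCL10 were kept only through their transfected value, and the median was −2.07 for members at 1 FPKM or more on both sides and −1.20 for transcripts of 2 to 4 kb. CCL5, which attracts T cells and monocytes, stood at 0.477 FPKM in stable cells, against 1036 FPKM in transfected cells (log2 −10.81, counting interval −11.90 to −10.34). It was listed at 0 in ΔTF cells, against 14.2 FPKM in mock cells. CXCL10 stood at 0.104 FPKM in stable cells, about 3 reads in both libraries together, against 227 FPKM in transfected cells (log2 −10.12, counting interval −13.31 to −9.47). CXCL11 shares its receptor with CXCL10 and stood at 0.303 FPKM in stable cells, against 227 FPKM in transfected cells. The neutrophil chemokine IL8 stood at 1.22 FPKM in stable cells, against 34.3 FPKM in transfected cells. The cytokine of granulocytes and macrophages CSF2 stood at 2.20 FPKM in stable cells, against 25.3 FPKM in transfected cells. LIF, a cytokine of the interleukin-6 family, was the exception at 4.48 FPKM in stable cells, against 2.07 FPKM in transfected cells. In contrast to the interferon-stimulated genes, this list had no common direction between the controls. In ΔTF cells 7 genes were at least 2-fold above mock cells (25.1% of all genes) and 7 below (31.9% of all genes), with a median of −0.23. CXCL10 is also counted among the interferon-stimulated genes, so the lists overlap and are not independent.

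NF-κB genes and acute phase genes differed in part. Beside the 8.43% lower and 20.0% higher among all genes, 12 of 20 NF-κB pathway and feedback genes were lower, 2 were higher and the median was −1.20. ICAM1, an adhesion receptor for leukocytes, stood at 0.318 FPKM in stable cells, against 64.3 FPKM in transfected cells (log2 −7.27). BIRC3, an inhibitor of apoptosis, stood at 25.6 FPKM in stable cells, against 641 FPKM in transfected cells (log2 −4.64). SOD2, the mitochondrial superoxide dismutase, stood at 29.5 FPKM in stable cells, against 671 FPKM in transfected cells (log2 −4.50). The NF-κB subunits themselves were closer, with NFKB1 at 19.4 FPKM in stable cells, against 30.3 FPKM in transfected cells, and RELA at 25.3 FPKM, against 15.8 FPKM. NFKBIA, the first inhibitor that NF-κB induces, stood at 32.2 FPKM in stable cells, against 33.0 FPKM in transfected cells. Of 12 acute phase and complement genes, 7 were lower and none higher, with a median of −2.17. This median was −0.45 for members at 1 FPKM or more on both sides, −1.15 with a pseudocount of 1 FPKM and −1.30 with no filter. SAA1, an acute phase apolipoprotein, stood at 0.749 FPKM in stable cells, against 130 FPKM in transfected cells, and C3, the central complement component, at 6.31 FPKM, against 57.0 FPKM.

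Antigen presentation genes could be read only in part, because TAP1 and PSMB9, among others, were not among the genes kept. Of the 9 that were, 4 were lower (8.43% of all genes) and none higher. B2M, the light chain of class I molecules, stood at 331 FPKM in stable cells, against 662 FPKM in transfected cells (log2 −0.998, just short of the limit). PSMB10, a subunit of the immunoproteasome, stood at 8.18 FPKM in stable cells, against 32.6 FPKM in transfected cells. CD74, the invariant chain of class II molecules, was counted with the hematopoietic markers and not in this list. Its level was 0.435 FPKM in stable cells, against 215 FPKM in transfected cells. It stood at 0.940 FPKM in ΔTF cells, against 26.3 FPKM in mock cells.

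**Figure D3:**
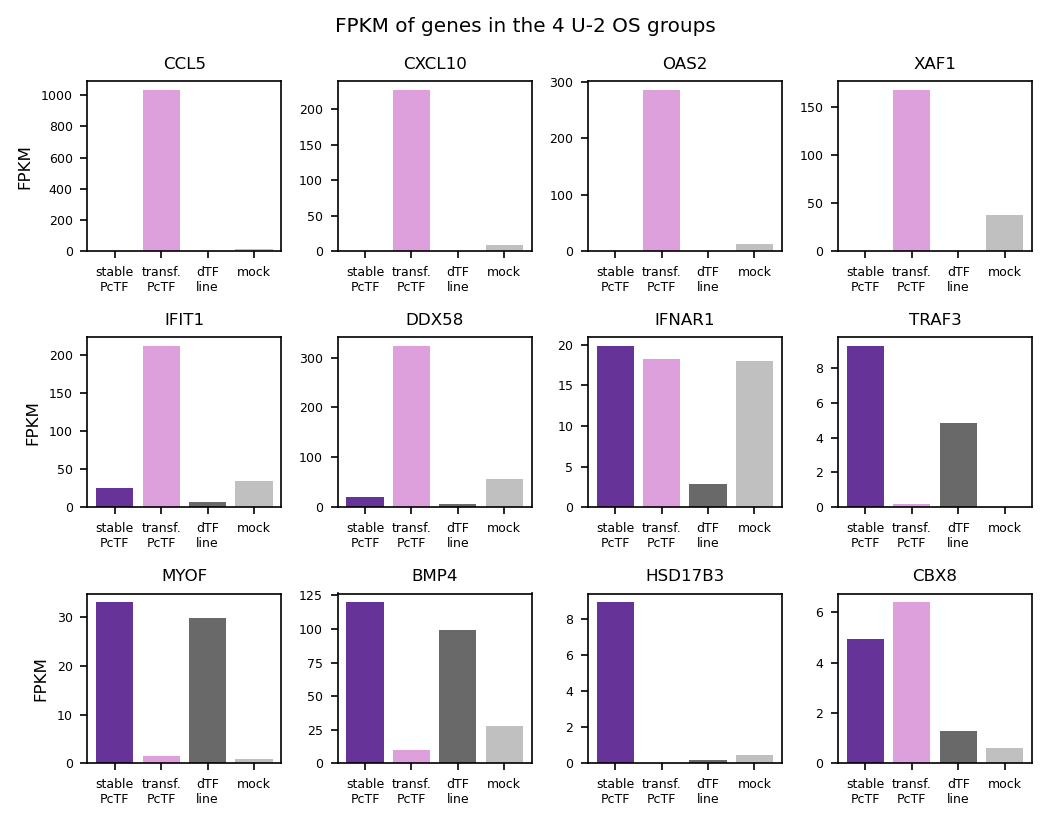
FPKM (y axes, each from 0 with its own scale) of 12 genes in stable U2OS-PcTF cells (derived mean of 2 libraries), PcTF-transfected cells, U2OS-ΔTF cells and mock cells (1 library each). CCL5, CXCL10, OAS2, XAF1, IFIT1 and DDX58 are highest in transfected PcTF cells, IFNAR1 is at 19.9 and 18.3 FPKM in the stable and transfected cells, TRAF3, MYOF and BMP4 are high in both integrated lines, and HSD17B3 is high in stable PcTF cells alone among these libraries.

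The panel of genes that the study followed as Polycomb targets showed no shared direction between stable and transfected PcTF cells. It was chosen by the study and not from this comparison. Of its 14 genes, 10 were kept, 1 was higher, 3 were lower (20.0% and 8.43% of all genes) and the median log2 ratio was 0.08, or −0.18 when centered. Over ΔTF cells, 5 of the 10 were at least 2-fold higher in stable cells (39.0% of all genes), with a median of 0.86. Over mock cells, 5 of the 10 were higher in transfected cells (12.4% of all genes), with a median of 0.98. None was at least 2-fold lower in either, beside 11.1% and 4.51% of all genes. CLU, a secreted chaperone, stood at 142 FPKM in stable cells, against 64.7 FPKM in transfected cells. TRIM22 stood at 11.1 FPKM in stable cells, against 76.2 FPKM in transfected cells, and is also an interferon-stimulated gene. ATF3, a stress-induced transcription factor, stood at 1.91 FPKM in stable cells, against 6.81 FPKM in transfected cells, and IRF8 belongs to the interferon regulatory factors above. The 3 lower panel genes are thus also members of the interferon or stress lists. The others were closer, such as LAMB3 at 25.2 FPKM in stable cells, against 15.6 FPKM in transfected cells, WT1 at 3.89 FPKM, against 3.81 FPKM, and CADM1 at 21.0 FPKM, against 19.2 FPKM. CDH1, CDKN2A, HOXB4 and RUNX3 did not reach 1 FPKM on either side. Control genes of the study were GAPDH at 2846 FPKM in stable cells, against 1319 FPKM in transfected cells, ACTB at 1376 FPKM, against 561 FPKM, and CHMP2A at 41.4 FPKM, against 32.2 FPKM. GAPDH and ACTB thus differed by over 2-fold between the PcTF groups and also between ΔTF cells (3663 and 2288 FPKM) and mock cells (1503 and 422 FPKM).

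Of 28 HOX genes kept, 9 were at least 2-fold higher and none lower (20.0% and 8.43% of all genes), with a median of 0.62 beside 0.30 for all genes. HOXA9 stood at 5.33 FPKM in stable cells, against 1.51 FPKM in transfected cells (log2 1.75). HOXC6 stood at 18.4 FPKM in stable cells, against 7.24 FPKM in transfected cells (log2 1.34). HOXA11, which patterns the forearm, went the other way at 1.62 FPKM in stable cells, against 2.95 FPKM in transfected cells, within 2-fold. Of 31 other developmental transcription factors kept, 11 were higher and 4 lower, and their median of 0.32 lay at that of all genes, or at 0.05 when centered. SOX2, a factor of stem cells, stood at 5.16 FPKM in stable cells, against 0.606 FPKM in transfected cells (log2 2.90). It stood at 0.149 FPKM in ΔTF cells, against 0.266 FPKM in mock cells, so both controls were low. GATA6 stood at 0.0632 FPKM in stable cells, against 4.89 FPKM in transfected cells, and LHX2 at 0.111 FPKM, against 4.64 FPKM. GATA6 and LHX2 were also low in ΔTF cells (0.315 and 0 FPKM) and higher in mock cells (5.85 and 4.53 FPKM).

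The CBX family holds readers of the Polycomb mark and heterochromatin proteins. Of its 8 genes, 4 were higher in stable cells and none lower (20.0% and 8.43% of all genes). CBX6 stood at 4.78 FPKM in stable cells, against 0.609 FPKM in transfected cells (log2 2.78). CBX2, a Polycomb reader like CBX8, stood at 10.9 FPKM in stable cells, against 5.17 FPKM in transfected cells. CBX1 and CBX5 belong to the heterochromatin protein 1 family and stood at 234 and 64.4 FPKM in stable cells, against 89.3 and 31.1 FPKM in transfected cells. CBX1, CBX2 and CBX6 were also at least 2-fold higher in ΔTF than in mock cells, as were 25.1% of all genes. CBX3 and CBX7 stayed within 2-fold. Subunits of PRC1 were higher at 4 of 19 genes and lower at 1, with a median of 0.51, and those of PRC2 were higher at 2 of 10 and lower at none, with a median of 0.59. Both shares of higher subunits lay near the 20.0% of all genes.

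Genes of growth factor pathways that shape bone and connective tissue differed one by one. BMP4, a bone morphogenetic protein, stood at 120 FPKM in stable cells, against 10.2 FPKM in transfected cells (log2 3.54). BMP2 stood at 4.47 FPKM in stable cells, against 19.9 FPKM in transfected cells (log2 −2.13). In all, 10 of 39 genes of the TGF-β and BMP pathway were higher and 4 lower, near the 20.0% and 8.43% of all genes. The receptor TGFBR2 stood at 55.2 FPKM in stable cells, against 21.3 FPKM in transfected cells. Of 22 WNT pathway genes, 10 were higher (20.0% of all genes) and 2 lower (8.43% of all genes). AXIN2, a feedback target of WNT signaling, stood at 5.86 FPKM in stable cells, against 1.62 FPKM in transfected cells, and TCF7 stood at 0.297 FPKM, against 4.35 FPKM.

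Matrix genes split in both directions. Of 18 collagens 4 were higher and 4 lower, and of 27 other matrix genes 8 were higher and 6 lower, where 20.0% and 8.43% of all genes were. COL1A1, the main collagen of bone, stood at 88.8 FPKM in stable cells, against 11.3 FPKM in transfected cells (log2 2.96). COL3A1, a collagen of distensible tissue, stood at 3.17 FPKM in stable cells, against 28.6 FPKM in transfected cells (log2 −3.14), and at 0.196 FPKM in ΔTF cells, against 451 FPKM in mock cells. For COL3A1, mock cells were thus far above all 3 other groups. FN1, which encodes fibronectin, stood at 159 FPKM in stable cells, against 55.4 FPKM in transfected cells. THBS1, an adhesive glycoprotein, stood at 72.0 FPKM in stable cells, against 14.6 FPKM in transfected cells. POSTN, a matrix protein of bone and ligament, stood at 0.0125 FPKM in stable cells, about 1 read, against 9.00 FPKM in transfected cells and 120 FPKM in mock cells.

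Growth and stress lists differed in both directions. Of 35 proliferation genes 6 were higher and none lower, with a median of 0.62, or 0.35 when centered. Among all genes 20.0% were higher, so the share of higher proliferation genes was not above it. TOP2A, a topoisomerase of dividing cells, stood at 461 FPKM in stable cells, against 189 FPKM in transfected cells, and FOXM1, a cell cycle factor, at 65.9 FPKM, against 24.2 FPKM. MKI67 was closer at 174 FPKM in stable cells, against 120 FPKM in transfected cells. Of 19 p53 targets 7 were higher and none lower, with a median of 0.82, but 11 were also higher in ΔTF than in mock cells (25.1% of all genes). TP53I3 stood at 18.3 FPKM in stable cells, against 5.60 FPKM in transfected cells, whereas CDKN1A, the cell cycle inhibitor p21, stood at 40.6 FPKM, against 47.5 FPKM. Of 22 cholesterol synthesis genes 10 were lower (8.43% of all genes) and 1 higher, with a median of −0.62. HMGCS1 stood at 12 FPKM in stable cells, against 65.6 FPKM in transfected cells and SQLE at 24.7 FPKM, against 115 FPKM. Of 20 ATF4 and unfolded protein response genes 6 were lower and 1 higher, including ASNS at 18.9 FPKM in stable cells, against 77.6 FPKM in transfected cells. Cytosolic ribosomal proteins (7 of 73 higher, 8 lower, median −0.06) and respiratory chain subunits (1 of 50 higher, 1 lower, median −0.04) were centered near 0.

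Several genes had a high level in both integrated lines and a level near 0 in both groups of ATCC cells, or the reverse. PAGE2, a cancer-testis antigen on the X chromosome, stood at 33.6 FPKM in stable cells and was listed at 0 in transfected cells. It stood at 99.3 FPKM in ΔTF cells and was listed at 0 in mock cells. MYOF, a membrane repair protein, stood at 33.2 FPKM in stable cells, against 1.55 FPKM in transfected cells, and at 29.7 FPKM in ΔTF cells, against 0.894 FPKM in mock cells. NTM, SYTL3, ITGBL1 and FLJ22447 had the same pattern. The opposite pattern held for GTSF1, a germline factor that was at 0 in stable and ΔTF cells, against 276 FPKM in transfected and 215 FPKM in mock cells. IL13RA2, a decoy receptor, stood at 5e-05 FPKM in the stable mean, which is 0 within the rounding of the deposited values, against 40.9 FPKM in transfected cells. Its level was 0.295 FPKM in ΔTF cells, against 45.9 FPKM in mock cells. BASP1 stood at 0.0228 FPKM in stable cells, about 1 read, against 16.5 FPKM in transfected cells, and at 0.216 FPKM in ΔTF cells, against 13.9 FPKM in mock cells.

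The PcTF pair and the control pair were then compared gene by gene. Of the 2626 genes higher in stable than in transfected PcTF cells, 1131 (43.1%) were also at least 2-fold higher in ΔTF than in mock cells, where the background was 25.1%. The 403 others that went the opposite way made up 15.3%. Of the 1106 lower genes, 677 (61.2%) were also lower in ΔTF than in mock cells, where the background was 31.9%, and 136 (12.3%) were higher there. The genes lower in both pairs were 61.2% of the genes lower in the PcTF pair and 16.2% of the 4189 lower in the control pair. Across genes, which are not independent replicates, the log2 ratios of both pairs had r = 0.23 and rho = 0.36. Without small RNA genes and short loci they were r = 0.39 and rho = 0.38. The pairs share no library, but the stable lines share a parental stock and the transfected and mock cells share another.

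Some genes were high in stable PcTF cells and low in the other 3 groups. HSD17B3, a testicular enzyme of testosterone synthesis, stood at 8.94 FPKM in stable cells and was listed at 0 in transfected cells, with 0.185 FPKM in ΔTF cells and 0.440 FPKM in mock cells. KIAA1210 stood at 6.24 FPKM in stable cells, against 0.184 FPKM in transfected cells, with 0.0679 FPKM in ΔTF cells and 0.295 FPKM in mock cells. LINC00221 stood at 8.40 FPKM in stable cells and was listed at 0 in transfected cells, with 0.784 FPKM in ΔTF cells and 0.133 FPKM in mock cells. RPL13AP20, a ribosomal protein pseudogene, and C20orf24, which overlaps the read-through gene TGIF2-C20ORF24, were also among the 15 highest ratios, but their reads cannot be assigned with certainty.

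Each PcTF group was then set beside its own control, over 13721 genes with 1 FPKM or more in any of the 4 groups. Stable PcTF cells were at least 2-fold above ΔTF cells at 5247 genes (38.2%) and below at 1770 (12.9%). Transfected PcTF cells were at least 2-fold above mock cells at 1692 genes (12.3%) and below at 838 (6.11%). Genes up in both numbered 533, which were 10.2% of the genes up in stable cells, beside the 12.3% of all genes up in transfected cells. They were 31.5% of the genes up in transfected cells, beside the 38.2% of all genes up in stable cells. Another 423 genes (25.0% of those up in transfected cells) were down in stable cells, beside 12.9% of all genes. The genes that set the 2 responses furthest apart toward transfected cells included SAA1, CCL3 and SAA2. Those furthest toward stable cells were mainly genes absent from ΔTF cells and abundant in mock cells, such as SOSTDC1, an inhibitor of WNT and BMP signaling, at 14.2 FPKM in stable and 7.00 FPKM in transfected cells, with 0 in ΔTF and 145 FPKM in mock cells. The median log2 ratio of stable over ΔTF cells ran from −0.08 in the bin of shortest transcripts to 1.03 in that of the longest. With mock cells as the control of stable cells too, 3756 genes were up and 1066 down. What made these counts differ from those over ΔTF cells was not tested.

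Ratios were also read along the chromosomes, in a comparison chosen after values had been seen. Chromosome 14 had a median log2 ratio of 0.95 between stable and transfected PcTF cells over 370 genes at 1 FPKM or more on both sides. The other chromosomes lay between −0.09 (chromosome 18) and 0.56 (chromosome 17). Of the chromosome 14 genes kept, 53.2% were at least 2-fold higher in stable cells, against 18.8% of all genes, both without small RNA genes and short loci. The control pair had a median of 0.36 on chromosome 14 and lay between −0.997 (chromosome 18) and 0.51 (chromosome 17).

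**Figure D4:**
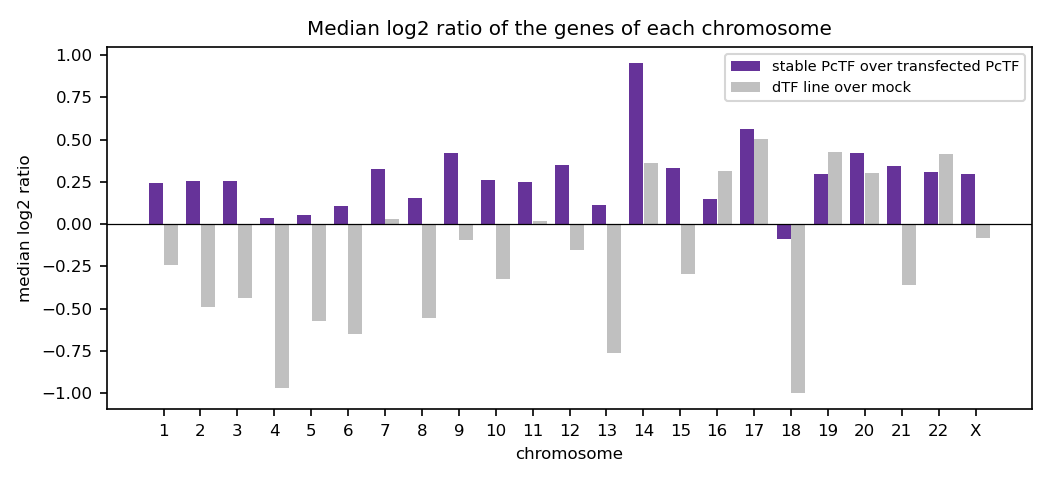
Median log2 ratio (y axis) of the genes of each chromosome (x axis) with 1 FPKM or more in both PcTF groups, for stable over transfected PcTF cells (purple) and for ΔTF over mock cells (gray). Chromosome 14 has the highest purple bar, at 0.95.

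Near the end of chromosome 14, neighboring genes were almost silent in both groups of the ATCC stock. TRAF3 (hg19 chr14:103243816-103377837), an adaptor that restrains NF-κB and links sensors to interferon induction, stood at 9.27 FPKM in stable cells, against 0.162 FPKM in transfected cells, and at 4.82 FPKM in ΔTF cells, against 0 in mock cells. CDC42BPB, the next gene, is a kinase of the cytoskeleton and stood at 15.7 FPKM in stable cells, against 0.359 FPKM in transfected cells, and at 14 FPKM in ΔTF cells, against 0.378 FPKM in mock cells. TNFAIP2 stood at 2.25 FPKM in stable cells, against 0.176 FPKM in transfected cells, about 3 reads. The other 22 genes kept within about 1.2 Mb of TRAF3 had log2 ratios between 0.19 and 3.50. On chromosome 3, 11 of 15 genes kept between SERPINI1 and TNFSF10 (hg19 chr3:167453432-172241297) were at least 2-fold lower in stable cells, with a median of −1.76. In the control pair 14 of the 15 were at least 2-fold lower, with a median of −2.47. Without small RNA genes and short loci, 8.20% and 32.2% of all genes were lower in these pairs. Genes just outside the stretch, such as PDCD10 (log2 −1.76) and NCEH1 (−2.26), were also lower in stable cells. NLGN1 and TBL1XR1, further out, were higher (0.92 and 0.66). The stretch holds PHC3, a PRC1 subunit, SKIL, a brake on SMAD signaling, and TNFSF10, the death ligand TRAIL. TNFSF10 stood at 0.369 FPKM in stable cells, against 35.5 FPKM in transfected cells.

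**Figure D5:**
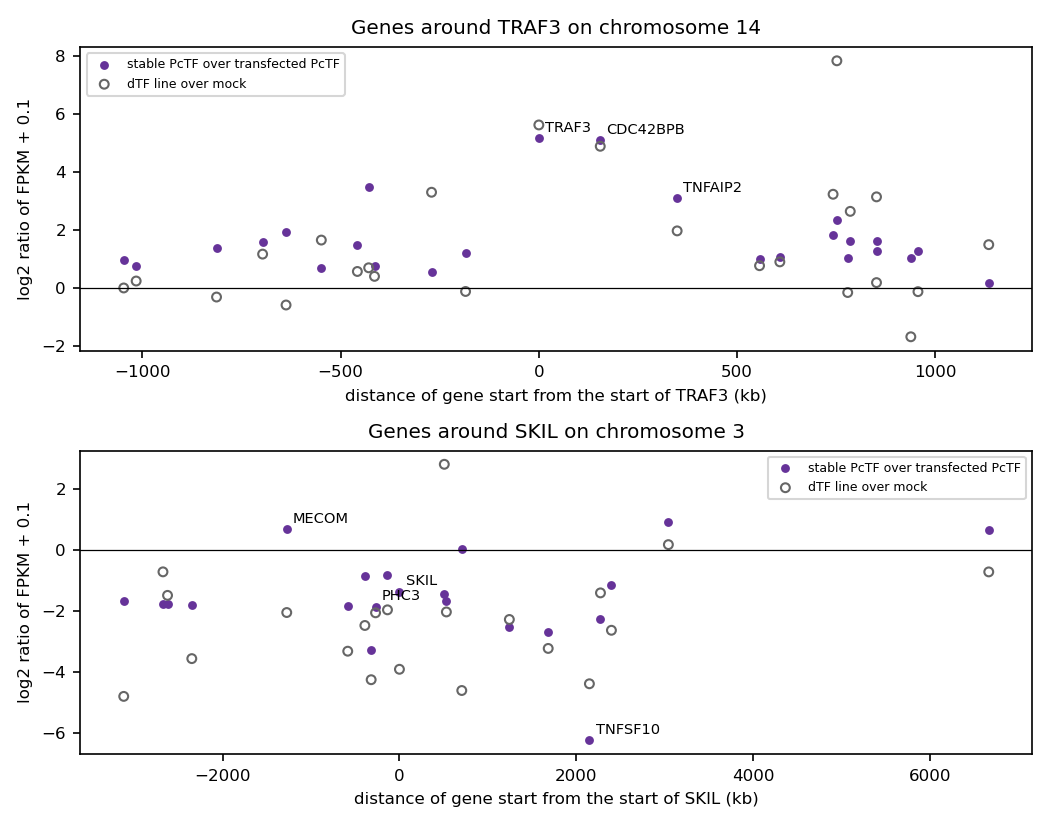
Log2 ratio of FPKM + 0.1 (y axes) of genes around TRAF3 on chromosome 14 (upper panel) and around SKIL on chromosome 3 (lower panel), by distance of the gene start in kb (x axes). Filled points are stable over transfected PcTF cells and open points ΔTF over mock cells. TRAF3 and CDC42BPB reach 5.16 and 5.10, and TNFSF10 reaches −6.25.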

How the data were processed

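RNA-seq values came from the deposited Cuffdiff gene tables of U-2 OS cells. The authors used TopHat2 2.1.0 with Bowtie2 for alignment of single-end reads to hg19 and deposited FPKM per gene, scaled to depth and gene length, per the submitters' processing notes and the methods of the study. Of 4 tables, 2 were used, and 4 value columns of other cell lines were not. Columns of fold changes, p-values and q-values from the authors' own comparisons were not used. Coordinates of genes are hg19 locus intervals as deposited.

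The U2OS-PcTF column equaled the transfected value divided by 3 within 0.01% at 325 genes, and 10 genes lay over 1% below that quotient, of which 1 had 1 FPKM or more. The stable mean was therefore taken as (3 × column − transfected value)/2, not below 0. A pseudocount of 0.1 FPKM, a minimum of 1 FPKM on either side and a 2-fold limit were used. FPKM is not a count, and no test was run. Reads were estimated from the steps of low single-exon values. In the transfected, ΔTF and mock libraries 97.4%, 96.4% and 94.6% of these values were whole within 3%. On the stable side 94.0% fitted whole reads of the stable libraries within 0.7%. Transcript lengths were known for 84.5% of genes. Intervals are exact 95% binomial and cover counting error only. They come from estimated reads without the pseudocount, so they need not be centered on the printed log2 ratios. The subtraction was also run on simulated data built as such a mean, which cannot show that the deposited column is one.

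Named genes were CBX8, the study's panel and controls, the 15 highest and 15 lowest ratios at 5 FPKM or more with loci of 300 bp or more, up to 5 members per list, all members of 4 signaling and CBX lists, and the 10 highest and 10 lowest response differences. Others were picked after their values were seen, among them the transcripts named as examples of list members within 2-fold. The 39 lists and all members were chosen with earlier results of these data known. Python 3.11.15, pandas 2.3.3, numpy 2.4.6, scipy 1.17.1 and matplotlib 3.10.9 were used. Alternatives changed the pseudocount, filter, centering, derivation and set of genes. A U-2 OS library labeled as transfected with ΔTF had conflicting labels and was not analyzed here. A few list members are counted but not reported by name here.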

Additional observations from a re-analysis of the deposited data

Results flagged for a closer look

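The genes below went in opposite directions in the PcTF groups, each against its own control: stable PcTF cells lay below U2OS-ΔTF cells, and transfected PcTF cells lay at least 4-fold above mock cells. The difference was not tested, since each control is 1 library, and the ΔTF library stands apart from the others. Each value is a log2 ratio, first of stable over ΔTF cells and then of transfected over mock cells. The acute phase genes were SAA1 at −4.23 and 6.03, SAA2 at −2.47 and 6.29, and the complement protease C1S at −1.75 and 2.74. The chemokine CCL3 had −5.28 and 3.81, and the protease inhibitor PI3 had −5.42 and 2.68. Interferon-inducible genes were GBP5 at −0.90 and 4.89, PSMB10 at −2.50 and 2.65, and CD74 at −0.96 and 3.02. GBP5 and CD74 were within 2-fold between stable and ΔTF cells, and CD74 was below 1 FPKM in both. The stress cytokine GDF15 had −2.26 and 3.11. The read-through gene TGIF2-C20ORF24 had −1.997 and 6.24, but it shares exons with its component genes and its value is uncertain.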

How the results depend on the processing

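No paired analysis was possible because the stable value is a mean and every other group is 1 library. For the same reason no stable replicate could be left out. Counts of genes higher and lower in stable than in transfected cells were 2626 and 1106. With a pseudocount of 1 FPKM 1736 were higher. With the deposited mean of 3 as it stands, which includes the transfected library, they were 1488 and 475. At 5 FPKM on either side they were 1520 and 590. Centering subtracts 0.26 from each ratio and gave 1762 and 1510. With no filter 1845 were lower. With 1 FPKM on both sides, an alternative chosen after seeing the data as were leaving out chromosome 14 and keeping transcripts of 2 to 4 kb, they were 1589 and 583. The median of chemokines and cytokines was −2.19 at a pseudocount of 1, −1.37 with the deposited mean, −2.38 with no filter, −2.07 with 1 FPKM on both sides and −1.20 for transcripts of 2 to 4 kb. That of interferon-stimulated genes was −1.36 with the deposited mean, and those of nucleic acid sensors and NF-κB genes were −0.68 each. That of acute phase genes was −0.45 with 1 FPKM on both sides, −1.05 with the deposited mean, −1.15 at a pseudocount of 1, −1.30 with no filter and −1.92 with its member at 0 set to a bound of 3 reads. The median of neural markers, −1.18, was 0.65 at 5 FPKM, where fewer genes enter. Of 7 lists with a median of 2-fold or more, no other changed sign. For single genes of that size the settings used could not reverse the sign, so no count is given for them. Of 32 lists with smaller medians 14 changed sign under some setting, 10 of them when centered. Cancer-testis genes (0.25) had −0.90 and the study's panel (0.08) −0.53 for transcripts of 2 to 4 kb, and hematopoietic markers (−0.17) had 0.88 with no filter. In transfected over mock cells, 891 and 398 genes were up and down at a pseudocount of 1, and 930 and 350 at 5 FPKM, and 167 and 214 were up in both responses under these settings. In stable over ΔTF cells 3253 were up at 5 FPKM, and 1066 were down with mock cells as the control.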

Other observations

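Lists not described above also held differences between stable and transfected PcTF cells. Among all genes kept, 20.0% were higher in stable cells and 8.43% lower. Of 22 integrins and laminins 6 were higher and 4 lower. ITGB4, a partner chain of hemidesmosomes, stood at 8.45 FPKM in stable cells, against 1.85 FPKM in transfected cells, while ITGA2, a collagen receptor chain, stood at 57.7 FPKM, against 209 FPKM. Of 14 metalloproteinases and their inhibitors 4 were higher and 6 lower. MMP2 stood at 50.1 FPKM in stable cells, against 15.4 FPKM in transfected cells, while MMP9 stood at 2.49 FPKM, against 11.4 FPKM. The 2 gelatinases thus lay on opposite sides. Of 14 AP-1 and immediate early genes 4 were higher and 4 lower. FOSL1 stood at 39.2 FPKM in stable cells, against 12.3 FPKM in transfected cells, and JUNB at 3.67 FPKM, against 14 FPKM. Of 24 glycolysis and hypoxia genes 2 were higher and 5 lower. The list had no shared direction, with 12 genes above and 12 below an equal level and a median log2 ratio of 0.01. Those at least 2-fold lower were CA9, ALDOC, VEGFA, BNIP3 and NDRG1. All 5 were also at least 2-fold lower in ΔTF than in mock cells, as were 31.9% of all genes. VEGFA stood at 4.78 FPKM in stable cells, against 16 FPKM in transfected cells, and at 6.37 FPKM in ΔTF cells, against 13.7 FPKM in mock cells.

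Among 343 small RNA genes and loci under 300 bp that were kept, 231 were at least 2-fold higher in stable cells and 59 lower, while 226 of the genes listed at 0 in transfected cells were of this kind. FPKM divides by a short length, so 1 read gives a high value there, and the stable side was 6.60 times deeper.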
